A study of Mus musculus with 6 samples.

Results

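The genes described here are 10 antioxidant response genes of the NRF2 pathway, read in 6 mammary tumors of NeuT/ATTAC mice. They were chosen by name (Gpx2, Nqo1, Hmox1, Gclc, Gclm, Txnrd1, Srxn1, Gsta4, Slc7a11 and Nfe2l2), and each of the 10 symbols matched 1 Ensembl gene ID of the 54532 in the deposited values. NeuT/ATTAC mice, on the FVB strain, carry the MMTV-Erbb2 (NeuT) transgene, whose promoter drives the oncogene in mammary epithelium. They also carry FAT-ATTAC, a transgene expressed in fat cells, with which the dimerizer AP20187 ablates adipose tissue and brings on fibrosis. All mice, controls included, were given AP20187 at 0.4 mg/kg, starting at 6 weeks of age, and from 8 weeks either 100 μg of an anti-PD-1 monoclonal antibody (3 tumors) or of matching IgG (3 tumors). The comparison asks how the tumors of mice given PD-1 blockade differ from those of control mice. Each group is thus tumor tissue from treated animals of 1 strain, without an arm that received no AP20187.

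NRF2, the product of Nfe2l2, is a transcription factor that the adaptor KEAP1 holds at a low level by marking it for degradation. When electrophiles or oxidants modify KEAP1, NRF2 accumulates, pairs with a small MAF protein and binds antioxidant response elements near genes for glutathione synthesis, thioredoxin reduction and detoxification. Tumor cells and macrophages both use this program, and single target genes also answer to other factors.

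Values are FPKM, fragments scaled by exon length and by library size. Reads were recovered with the merged length of all annotated exons of a gene, from 1266 bases in Gsta4 to 13922 in Slc7a11. Levels of different genes set side by side therefore depend on the annotation. Between 21065845 and 23843887 reads per tumor could be recovered from the FPKM values, and median-of-ratios factors of the 6 tumors lay between 1.00 and 1.01. Of the 12 lists of cell type markers, the luminal epithelial list had a summed level of 2227 to 3118 FPKM in IgG and 3153 to 4047 FPKM in anti-PD-1 tumors. The 7 T cell markers each had a mean FPKM under 0.5, and 5 of the 6 adipocyte markers did too. Erythroid markers summed to 835 FPKM in anti-PD-1 replicate 1 and to between 41.5 and 279 FPKM in the other tumors, and skeletal muscle markers ran from 0.612 to 148 FPKM. In bulk tumors, a change in the number of cells of a type and a change in RNA per cell cannot be told apart.

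Promoter sequences were searched for the letters of the core of an antioxidant response element, and binding was not looked at. RefSeq windows of 300 bases on GRCm38.p6 (250 before and 50 after the start site) were found for 7 of the 10 genes. The core searched was TGACNNNGC on both strands, which can contain TGACTCA, the word bound by AP-1. It was present in the windows of 4 of these 7 genes (Gclm, Txnrd1, Srxn1 and Nfe2l2), against 14% of all 27025 genes with a window. TGACTCA was found only in the window of Srxn1, in 2 copies, while 5.95% of all genes had it. The 4 stretches with a match are given 5′ to 3′ along the gene's strand, with the core in capitals. In Gclm, Txnrd1 and Srxn1 it lies on the opposite strand and so reads as its reverse complement. Txnrd1 has 3 windows, and the core is only in that of an internal start site, chr10:82858956-82859255, not in that of the first start, chr10:82833701-82834000.
Gclm (chr3:122245393-122245461, plus strand): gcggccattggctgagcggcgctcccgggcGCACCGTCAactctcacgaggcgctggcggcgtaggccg
Txnrd1 (chr10:82859084-82859152, plus strand): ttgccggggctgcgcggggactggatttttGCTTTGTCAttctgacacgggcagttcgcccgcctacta
Srxn1 (chr2:152105542-152105570, plus strand): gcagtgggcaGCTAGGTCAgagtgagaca
Nfe2l2 (chr2:75704865-75704913, minus strand): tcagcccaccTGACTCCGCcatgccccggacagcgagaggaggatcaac

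The core began 134 bases before the start site in Gclm, 92 bases before the internal start of Txnrd1 and 240 bases before the start site in Nfe2l2, and 29 bases into the transcribed side in Srxn1. Gpx2 and Nqo1 are the genes on which the comparison below turns, and the 250 bases before their start sites are shown for that reason. The letters of the core are in neither of their windows, which says nothing of elements farther from the start.
Gpx2 (chr12:76795555-76795804, minus strand): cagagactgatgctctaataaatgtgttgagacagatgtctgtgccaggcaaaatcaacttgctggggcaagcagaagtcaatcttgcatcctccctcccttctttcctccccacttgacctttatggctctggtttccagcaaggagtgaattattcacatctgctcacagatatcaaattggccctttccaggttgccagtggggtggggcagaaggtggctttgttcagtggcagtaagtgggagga
Nqo1 (chr8:107403206-107403455, minus strand): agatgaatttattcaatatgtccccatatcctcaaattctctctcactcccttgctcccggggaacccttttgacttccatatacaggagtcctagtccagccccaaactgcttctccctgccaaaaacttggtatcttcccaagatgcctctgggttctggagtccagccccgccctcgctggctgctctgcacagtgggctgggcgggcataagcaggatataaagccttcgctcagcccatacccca

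Among the NRF2 genes, PD-1 blockade went with more Gpx2 and with less Nqo1, and the other genes tested did not pass the thresholds used. Neither Gpx2 nor Nqo1 passed after adjustment for all genes. The test was limma on log2(FPKM + 1), over the 15069 genes whose mean FPKM reached 0.5, as did 9 of the 10. Differences on this scale are given as log2 FC, anti-PD-1 minus IgG. A gene was counted as called where it changed by 1.5-fold or more with an unadjusted p under 0.05. The study used these thresholds together with a minimum raw score, which was not applied here. By this rule 1 of the 9 genes was called higher, against 3.90% of all genes tested, and 1 was called lower, against 4.53%. No gene of the 10, and 0 of all 15069 genes (0%), had a limma adjusted p under 0.05, whereas 1848 genes had an unadjusted p under 0.05. Limma's voom on the recovered reads gave 1 gene in all with an adjusted p under 0.05 and 1913 with an unadjusted p under 0.05. The median log2 FC of the 9 genes was 0.18, beside 0.01 for all genes tested. It ranged from 0.11 to 0.20 with single tumors left out and was 0.27 relative to the medians of the chromosomes. Because the genes of the set were named with earlier results of these tumors known, these counts are a description.

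**Figure D1:**
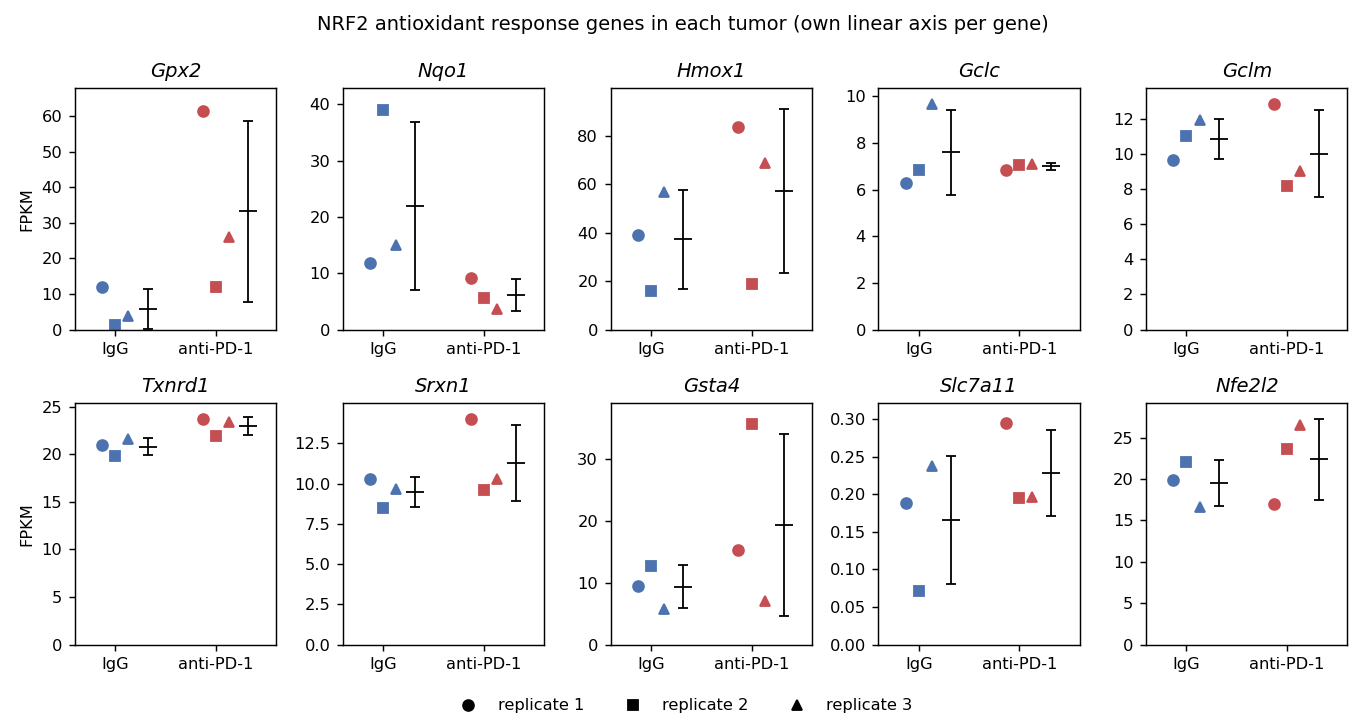
FPKM (vertical axis, linear from 0, with its own range for each gene) of the 10 genes in the 3 IgG and 3 anti-PD-1 tumors, with symbols for the replicates and the mean ± SD of each group beside them. Gpx2 in anti-PD-1 tumors starts at 12.1 FPKM, just over the highest IgG tumor at 12.0, and Nqo1 in anti-PD-1 tumors ends at 9.23 FPKM, under the lowest IgG tumor at 11.8.

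Gpx2 encodes a selenium-containing glutathione peroxidase of epithelial cells, which reduces hydroperoxides with glutathione. Gpx2 (ENSMUSG00000042808, protein-coding, chromosome 12 from 76792333 to 76795554, minus strand) had 12.0, 1.24 and 3.79 FPKM in the IgG tumors (replicates 1 to 3, an order kept throughout). For the anti-PD-1 tumors the values of Gpx2 were 61.5, 12.1 and 26.0 FPKM. The groups did not overlap, but anti-PD-1 replicate 2 and IgG replicate 1 were nearly level, and after quantile normalization, at 12.0 and 12.2 FPKM, they did overlap. Mean FPKM of Gpx2 was 33.2 ± 25.5 (SD, n = 3) under anti-PD-1 and 5.69 ± 5.64 (SD, n = 3) under IgG. Gpx2 thus had a log2 FC of 2.44 (standard error, SE, 0.74, 95% interval 0.69 to 4.18, unadjusted p = 0.013, limma adjusted p = 0.35). With 3 tumors a side, the smallest two-sided p of an exact permutation test is 0.1, and Gpx2 reached it. When single tumors were dropped the log2 FC of Gpx2 stayed between 1.83 and 3.10 and the unadjusted limma p at or under 0.0451. Only 0.113% of the genes tested had a larger log2 FC in either direction.

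Between 96 and 5072 reads stood behind the values of Gpx2 in single tumors, and the highest tumor had 49.5 times the FPKM of the lowest. Its exons in the annotation span the whole gene and share 0 bases with the exons of Fntb, a farnesyltransferase gene that covers it on the opposite strand. Fntb had between 6.81 and 12.6 FPKM over the 6 tumors, a 1.85-fold range, and a log2 FC of 0.23 (limma adjusted p = 0.703). Whether the reads were counted by strand is not given in the sources used here, so unspliced reads of Fntb cannot be told apart from those of Gpx2. Beside Gpx2, 3 of the 12 marker lists had summed levels that did not overlap between the groups, as did 18.1% of all single genes tested. The luminal epithelial sums, given above, were higher in anti-PD-1 tumors by a narrow gap, 3118 FPKM in the highest IgG and 3153 FPKM in the lowest anti-PD-1 tumor. The luminal keratins Krt8 and Krt18 overlapped. Keratinocyte markers summed to 1.76 to 3.55 FPKM in IgG and 3.66 to 6.81 FPKM in anti-PD-1 tumors, while basal epithelial markers summed to 7.10 to 12.2 FPKM in IgG and 5.07 to 5.77 FPKM in anti-PD-1 tumors. The keratinocyte sum followed Dsg3 (0.309 to 1.96 FPKM in IgG and 2.62 to 4.76 FPKM in anti-PD-1 tumors), while Krt10, the other marker tested, overlapped and 4 of the 6 had a mean FPKM under 0.5. Of the single basal markers, only Krt17 did not overlap. The part of these markers in the difference of Gpx2 was not tested.

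Nqo1 encodes the NAD(P)H quinone reductase that is commonly read as an indicator of NRF2 activity. Nqo1 (ENSMUSG00000003849, protein-coding, chromosome 8 from 107388225 to 107403206, minus strand) had 11.8, 39.0 and 15.1 FPKM in the IgG tumors. In the anti-PD-1 tumors it had 9.23, 5.63 and 3.61 FPKM. All anti-PD-1 tumors lay below all IgG tumors, and IgG replicate 2 stood far above the other IgG tumors. The group means of Nqo1 were 6.16 ± 2.85 (SD, n = 3) FPKM with PD-1 blockade and 22.0 ± 14.8 (SD, n = 3) FPKM with IgG. On the log2 scale the difference was -1.57 (SE 0.47, 95% interval -2.67 to -0.47, unadjusted p = 0.0117, limma adjusted p = 0.346), with an exact permutation p of 0.1. Leaving out IgG replicate 2 gave a log2 FC of -1.08, and the range over the 6 tumors left out singly was -1.90 to -1.08, with an unadjusted limma p of at most 0.0437. Chromosome 8 as a whole had a median of -0.02 over its tested genes. Krt19, a luminal keratin gene singled out after its values were seen and the 1 luminal marker called lower, was also highest in IgG replicate 2, at 77.9 FPKM, and had 1.70 to 7.84 FPKM in the other 5 tumors. Of the other 8 luminal markers, Cdh1 (125 FPKM) and Elf5 (74.6 FPKM) were also highest in that tumor, whereas Epcam and Erbb2 were higher in all anti-PD-1 than in all IgG tumors. The median log2 FC of the 9 luminal markers was 0.34. The summed basal epithelial markers, given above, were lower in all anti-PD-1 than in all IgG tumors and highest in IgG replicate 2, as Nqo1 was. Among the single basal markers, only Krt17 did not overlap (0.527 to 1.06 FPKM in IgG and 0.0271 to 0.378 FPKM in anti-PD-1 tumors). Krt5, Krt14, Trp63 and Oxtr overlapped. T cell markers (4.81 FPKM, at most 1.81 FPKM in the other tumors) and hepatocyte markers (8.10 FPKM, at most 2.62 FPKM in the others) also had their highest sums in IgG replicate 2. The part of these cell types in the difference of Nqo1 was not tested.

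**Figure D2:**
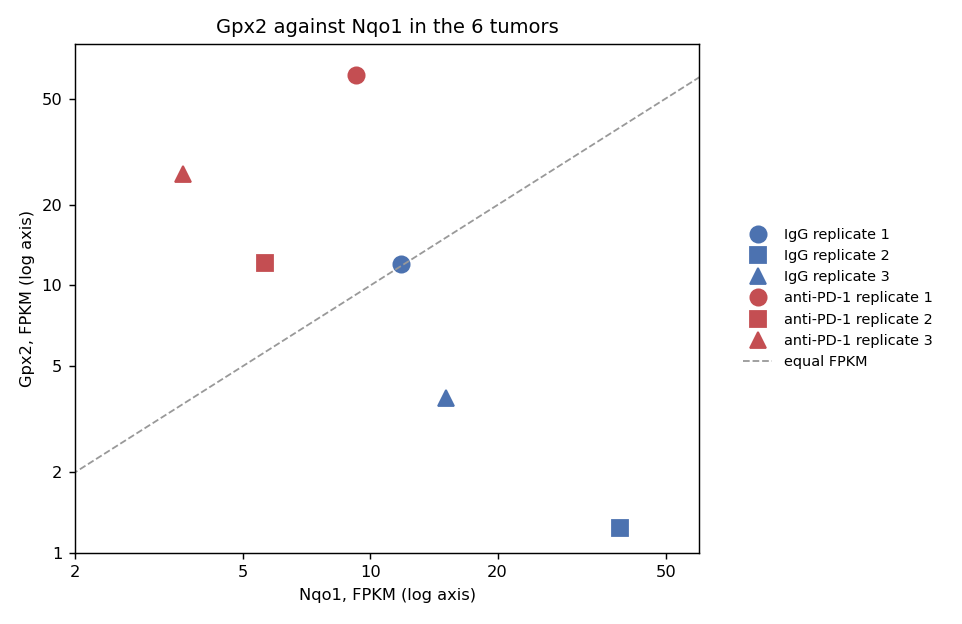
FPKM of Gpx2 (vertical) against FPKM of Nqo1 (horizontal) in the 6 tumors, both on log axes, with a dashed line where the levels are equal. The 3 anti-PD-1 tumors lie above the line, IgG replicates 2 and 3 lie below it, and IgG replicate 1 lies on it with a Gpx2 to Nqo1 ratio of 1.02.

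Gpx2 exceeded Nqo1 in all 3 anti-PD-1 tumors, fell short of it in IgG replicates 2 and 3, and was level with it in IgG replicate 1. The ratio of Gpx2 to Nqo1 FPKM was 1.02, 0.0318 and 0.251 among IgG tumors but 6.66, 2.14 and 7.21 among anti-PD-1 tumors. A ratio within a tumor does not depend on scaling between tumors, but its size depends on the exon lengths (3222 bases for Gpx2 and 1553 for Nqo1). The pair was picked for its opposite differences, so the ratio carries no test.

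The enzymes of glutathione synthesis had similar levels in both groups. Gclc and Gclm encode the catalytic and the modifier subunit of glutamate-cysteine ligase, the first and rate-limiting step of that synthesis. Gclc (ENSMUSG00000032350, chromosome 9 from 77754535 to 77794485, plus strand) had 6.29, 6.83 and 9.65 FPKM in IgG and 6.84, 7.03 and 7.11 FPKM in anti-PD-1 tumors. The anti-PD-1 tumors of Gclc lay within the range of the IgG tumors, with a coefficient of variation of 2.01%, against 23.8% in IgG tumors. The log2 FC of Gclc was -0.08 (95% interval -0.51 to 0.35, limma adjusted p = 0.882). The median over the tested genes of chromosome 9 was -0.36, and relative to it Gclc was at 0.28.

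For Gclm (ENSMUSG00000028124, chromosome 3 from 122245557 to 122270732, plus strand), the values were 9.63, 11.0 and 11.9 FPKM in IgG and 12.8, 8.17 and 9.03 FPKM in anti-PD-1 tumors. The highest and the lowest value of Gclm both came from anti-PD-1 tumors. Its log2 FC was -0.12 (95% interval -0.59 to 0.34, limma adjusted p = 0.831). The ratio of Gclc to Gclm FPKM lay between 0.534 and 0.861 in the 6 tumors, so in FPKM the modifier subunit had the higher level throughout. This ratio too depends on the exon lengths (3766 bases for Gclc and 6291 for Gclm).

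Slc7a11 encodes the cystine transporter xCT, which supplies the cysteine for glutathione. Slc7a11 (ENSMUSG00000027737, chromosome 3 from 49892526 to 50443614, minus strand) was barely expressed, with 0.189, 0.0718 and 0.238 FPKM in IgG and 0.295, 0.195 and 0.197 FPKM in anti-PD-1 tumors. It did not pass the filter on low FPKM and was not tested. Between 24 and 105 reads stood behind these values, and IgG replicate 3 exceeded 2 of the anti-PD-1 values. Slc3a2, its partner chain, which other transporters share and which is named outside the rule for related genes, had 48.6 to 83.4 FPKM (log2 FC 0.25, limma adjusted p = 0.661).

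Of the thioredoxin branch, Txnrd1 varied by 1.20-fold and Srxn1 by 1.65-fold from the lowest to the highest tumor. Txnrd1 encodes the cytosolic thioredoxin reductase, a selenoprotein. Txnrd1 (ENSMUSG00000020250, chromosome 10 from 82833951 to 82897712, plus strand) had 21.0, 19.8 and 21.6 FPKM in IgG and 23.7, 21.9 and 23.4 FPKM in anti-PD-1 tumors. The groups of Txnrd1 did not overlap, but the gap between them was smaller than the range within either, and after quantile normalization the groups overlapped. The log2 FC of Txnrd1 was 0.14 (95% interval -0.17 to 0.46, limma adjusted p = 0.686; exact permutation p = 0.1). Counting Gpx2 and Txnrd1, 2 of the 9 genes did not overlap with anti-PD-1 higher, against 9.30% of all genes tested, and Nqo1 was the 1 gene that did not overlap with anti-PD-1 lower, against 8.75%.

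Srxn1 encodes sulfiredoxin, which restores overoxidized peroxiredoxins. Srxn1 (ENSMUSG00000032802, chromosome 2 from 152105516 to 152111376, plus strand) had 10.3, 8.48 and 9.65 FPKM in IgG and 14.0, 9.58 and 10.3 FPKM in anti-PD-1 tumors. Anti-PD-1 replicate 1 stood above the other tumors, which overlapped. The log2 FC of Srxn1 was 0.22 (95% interval -0.21 to 0.66, limma adjusted p = 0.641).

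Hmox1 had the highest mean level of the 10 genes, 47.2 FPKM, and differed widely within both groups. It encodes heme oxygenase 1, which splits heme into biliverdin, iron and carbon monoxide and is abundant in macrophages that clear red cells. Hmox1 (ENSMUSG00000005413, chromosome 8 from 75093621 to 75100589, plus strand) had 39.1, 15.9 and 56.7 FPKM in IgG and 83.6, 19.0 and 68.8 FPKM in anti-PD-1 tumors. The second replicate was low in both groups, and the groups overlapped. The log2 FC of Hmox1 was 0.54 (95% interval -0.96 to 2.04, limma adjusted p = 0.759). Dropping anti-PD-1 replicate 2 gave 1.18, and dropping IgG replicate 2 gave 0.03.

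Beside Hmox1, the 12 macrophage markers summed to 330, 394 and 225 FPKM in IgG and to 457, 289 and 469 FPKM in anti-PD-1 tumors. Erythroid markers summed to 224, 85.8 and 279 FPKM in IgG and to 835, 41.5 and 69.5 FPKM in anti-PD-1 tumors. Anti-PD-1 replicate 1 was highest in these markers and in Hmox1, but anti-PD-1 replicate 3, second in Hmox1, was among the tumors with the lowest erythroid sums. The part of macrophages or red cells in the levels of Hmox1 was not tested.

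Gsta4 encodes a glutathione S-transferase that conjugates 4-hydroxynonenal, a product of lipid peroxidation. Gsta4 (ENSMUSG00000032348, chromosome 9 from 78182774 to 78209349, plus strand) had 9.55, 12.8 and 5.76 FPKM in IgG and 15.3, 35.7 and 7.12 FPKM in anti-PD-1 tumors. Anti-PD-1 replicate 2 was far above the others and anti-PD-1 replicate 3 was within the IgG range. The log2 FC of Gsta4 was 0.77 (95% interval -0.48 to 2.03, limma adjusted p = 0.583). Dropping anti-PD-1 replicate 2 gave 0.22. Dropping anti-PD-1 replicate 3 gave a value past the call thresholds, 1.3. Relative to the median of chromosome 9 it was 1.13.

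The regulator itself, Nfe2l2 (ENSMUSG00000015839, chromosome 2 from 75675513 to 75704641, minus strand), had 19.9, 22.1 and 16.6 FPKM in IgG and 17.0, 23.6 and 26.5 FPKM in anti-PD-1 tumors. The groups overlapped, and the log2 FC was 0.18 (95% interval -0.30 to 0.66, limma adjusted p = 0.75). NRF2 is controlled largely through its protein, which RNA levels do not show.

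**Figure D3:**
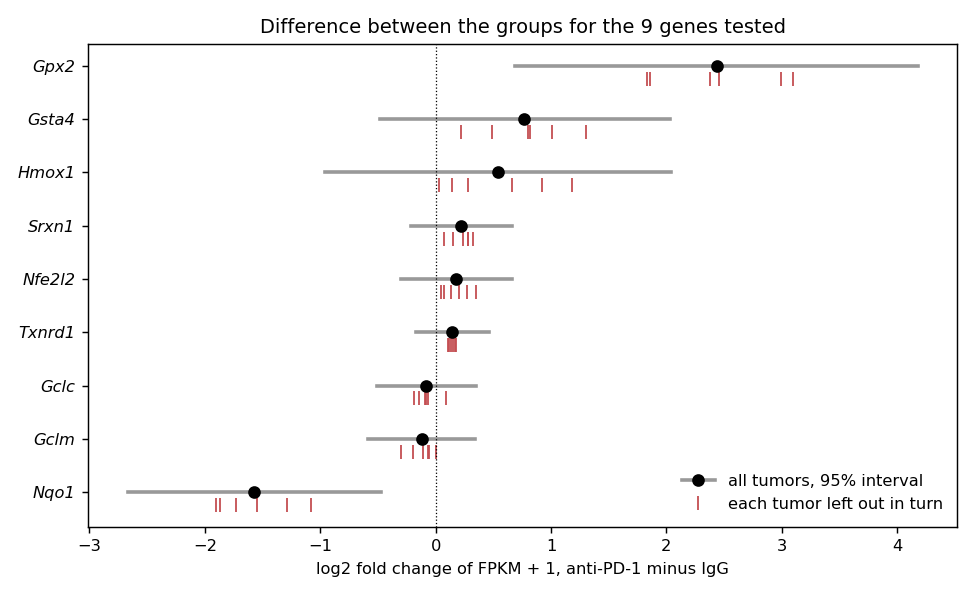
Log2 fold change (log2 FC) of FPKM + 1 (horizontal axis, anti-PD-1 minus IgG) for the 9 genes tested, with the 95% interval as a grey bar and red ticks for the fits that left out 1 tumor each. The intervals of Gpx2 and Nqo1 lie to either side of 0 and those of the other 7 genes include it.

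Across the set, single tumors stood out. Anti-PD-1 replicate 1 had the highest level of 6 of the 10 genes (Gpx2, Hmox1, Gclm, Txnrd1, Srxn1 and Slc7a11), and IgG replicate 2 the lowest of 5 (Gpx2, Hmox1, Txnrd1, Srxn1 and Slc7a11). Relative to the mean over the 6 tumors, the median of the 9 genes tested was 0.29 on the log2 scale in anti-PD-1 replicate 1 and between -0.07 and 0.00 in the other 5 tumors. By mean FPKM the 10 genes ran from Hmox1, Txnrd1 (21.9), Nfe2l2 (20.9), Gpx2 (19.4), Gsta4 (14.4) and Nqo1 (14.1) to Srxn1 and Gclm (10.4 each), Gclc (7.29) and Slc7a11 (0.198). Neighbours in this order overlapped in range over the tumors, except that Slc7a11 lay below all other genes in every tumor.

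Related genes were taken from 10 lists that hold 176 genes beside the 10, all of which matched an Ensembl gene ID. Of these, 152 were tested, 9 were called higher and 3 called lower, shares to be read against the 3.90% and 4.53% of all genes given above. None had a limma adjusted p under 0.05. Their median log2 FC was 0.17, and 110 of the 152 had a positive one, beside 50.8% of all genes tested. Gstm6, Ggt5, Dio3 and Cth are counted there, although they reached the filter only through the anti-PD-1 tumors, which favors a positive value. Leaving out IgG replicate 1 raised the counts to 20 higher and 7 lower, and leaving out IgG replicate 2 gave 9 and 1.

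**Figure D4:**
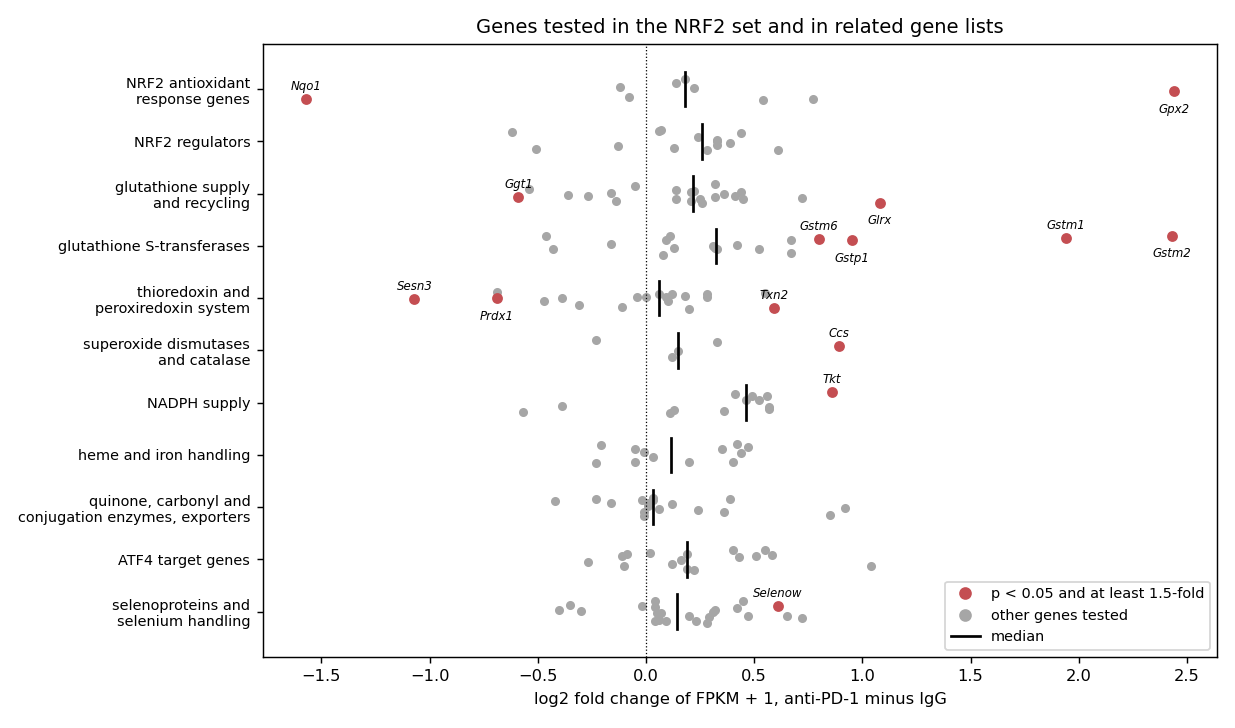
Log2 fold change (log2 FC) of FPKM + 1 (horizontal axis, anti-PD-1 minus IgG) of every tested gene of the NRF2 set and of 10 related lists, 1 row per list, with the median as a black bar. Genes with an unadjusted p under 0.05 and at least a 1.5-fold change are red and named, and the glutathione S-transferases Gstm1 and Gstm2 lie as far to the right as Gpx2 does or nearly so.

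The glutathione S-transferases couple glutathione to electrophiles. Of 25 genes on the list 18 were tested, 4 were called higher (Gstm1, Gstm2, Gstm6 and Gstp1) and 0 lower, with a median log2 FC of 0.33. Gstm1 had 44.1, 22.4 and 38.3 FPKM in IgG and 86.8, 149 and 175 FPKM in anti-PD-1 tumors, a log2 FC of 1.94 (SE 0.34, unadjusted p = 0.00064, limma adjusted p = 0.344). Gstm2 had 5.41, 1.32 and 3.12 FPKM in IgG and 8.94, 54.7 and 16.3 FPKM in anti-PD-1 tumors, a log2 FC of 2.43 (SE 0.64, limma adjusted p = 0.344). In both genes, and in Gpx2, the lowest tumor was IgG replicate 2.

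Gstp1, the pi class enzyme, had 74.0, 48.2 and 49.8 FPKM in IgG and 118, 110 and 101 FPKM in anti-PD-1 tumors (log2 FC 0.95, limma adjusted p = 0.344). Gstm6 was low, with 0 to 0.251 FPKM in IgG and 0.648 to 1.10 FPKM in anti-PD-1 tumors, on 0 to 52 reads. It passed the filter on low FPKM only through the anti-PD-1 tumors (mean 0.922 FPKM, against 0.0975 FPKM in IgG), so it had to differ, and without it 3 genes of the list and 8 of the related genes were called higher. In Gstm1, Gstm2 and Gstp1 the groups did not overlap. Gstk1, the kappa class gene, was the 1 gene of the list without overlap in the other direction, with 6.61 to 11.8 FPKM in IgG and 5.19 to 6.56 FPKM in anti-PD-1 tumors (log2 FC -0.46, limma adjusted p = 0.44, not called). The mu class genes form a cluster of close copies on chromosome 3, and Gstp1 has close copies too, and how reads shared between copies were divided was not tested, so the values of single copies are uncertain. The microsomal enzyme gene Mgst1 had the highest mean level on the list and overlapped between the groups, with 140 to 493 FPKM in IgG and 239 to 444 FPKM in anti-PD-1 tumors.

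In the glutathione supply and recycling list, 22 of 22 genes were tested, 1 was called higher (Glrx) and 1 lower (Ggt1). Glrx, which encodes glutaredoxin, had 10.7, 6.17 and 4.96 FPKM in IgG and 15.3, 18.4 and 13.6 FPKM in anti-PD-1 tumors (log2 FC 1.08, SE 0.27, limma adjusted p = 0.344). Ggt1, which starts the breakdown of extracellular glutathione, was low, with 1.51 to 2.49 FPKM in IgG and 0.617 to 1.27 FPKM in anti-PD-1 tumors (log2 FC -0.59, limma adjusted p = 0.38). The call of Ggt1, which rests on 51 to 204 reads, was lost in 7 of 13 refits, those without IgG replicate 2 or 3 or anti-PD-1 replicate 1 or 2 among them (log2 FC -0.47, -0.58, -0.63 and -0.44). Glrx5, a mitochondrial glutaredoxin gene, had a log2 FC of 0.44. The peroxidase gene Gpx4, the highest on the list, had 137 to 503 FPKM in IgG and 336 to 438 FPKM in anti-PD-1 tumors.

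The thioredoxin and peroxiredoxin list held 19 genes tested, 1 called higher and 2 called lower, with a median of 0.06. Txn2, the mitochondrial thioredoxin gene, was the higher one (20.4 to 24.0 FPKM in IgG and 29.3 to 41.8 FPKM in anti-PD-1 tumors, log2 FC 0.59, limma adjusted p = 0.349), a change that fell under 1.5-fold in 4 of 14 refits, without IgG replicate 2 (0.51) or anti-PD-1 replicate 3 (0.45) among them. Prdx1, a cytosolic peroxiredoxin gene, had 156 to 313 FPKM in IgG and 118 to 144 FPKM in anti-PD-1 tumors, a log2 FC of -0.69 (limma adjusted p = 0.394). The call of Prdx1 was lost in 6 of 14 refits, among them every one that dropped a tumor except IgG replicate 3, with log2 FC between -0.90 and -0.40 over the dropped tumors. Prdx1 lies on chromosome 4, whose tested genes had a median log2 FC of -0.40. Sesn3, a sestrin gene, lies on chromosome 9 (median -0.36) and had a log2 FC of -1.07 (limma adjusted p = 0.344). Prdx2 had a log2 FC of 0.55, and Txnip, which encodes a thioredoxin inhibitor and was the highest gene of the list, one of -0.69 with overlapping groups (122 to 301 FPKM in anti-PD-1 and 228 to 472 FPKM in IgG tumors). With single tumors dropped, Txnip ranged from -1.07 to -0.35.

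Enzymes that supply NADPH, the electron donor of NQO1 and of glutathione and thioredoxin reductase, were called in 1 case of 13 tested. The median log2 FC of the list was 0.46, and 11 of the 13 genes had a positive one, beside 50.8% of all genes tested. In 6 (Tkt, Idh2, Taldo1, Me1, G6pdx and Mthfd2) the groups did not overlap with anti-PD-1 higher, beside 9.30% of all genes. The called gene, Tkt, a pentose phosphate pathway gene, had 44.7, 34.7 and 37.2 FPKM in IgG and 56.7, 73.5 and 84.8 FPKM in anti-PD-1 tumors (log2 FC 0.86, SE 0.20, limma adjusted p = 0.344). The log2 FC was 0.57 for Idh2, a mitochondrial isocitrate dehydrogenase gene, and 0.56 for Taldo1, the transaldolase gene.

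The 5 superoxide dismutase and catalase genes were all tested, and 1 was called higher, Ccs, which encodes the copper chaperone of SOD1 (14.6 to 27.6 FPKM in IgG and 33.4 to 49.5 FPKM in anti-PD-1 tumors, log2 FC 0.89, limma adjusted p = 0.346). Sod1 had a log2 FC of 0.33, Sod2 of 0.15 and Cat, the highest of the 5, of -0.23. Of 24 tested genes of selenoproteins and selenium handling, the class to which Gpx2 and Txnrd1 belong, 1 was called higher and 0 lower. This was Selenow, with 119 to 143 FPKM in IgG and 175 to 246 FPKM in anti-PD-1 tumors (log2 FC 0.61, limma adjusted p = 0.355), a call lost in 3 of 14 refits, without IgG replicate 3 (0.54) or anti-PD-1 replicate 2 (0.46) among them. Sepsecs, which encodes the enzyme that finishes selenocysteine on its tRNA, had a log2 FC of -0.40, and Selenoh one of 0.65 (0.36 to 0.93 with single tumors dropped, with overlapping groups).

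Heme and iron genes, quinone and carbonyl enzymes with exporters, NRF2 regulators and ATF4 targets each had 0 genes called in either direction, of 12, 17, 14 and 16 tested. The ferritin heavy chain gene Fth1 had 1543, 1336 and 921 FPKM in IgG and 2027, 829 and 2317 FPKM in anti-PD-1 tumors, and Ftl1, its light chain, had a log2 FC of 0.47 without overlap between the groups. For the heme and iron transporters Slc48a1 and Slc40a1 it was 0.42 and 0.44. Among quinone and carbonyl enzymes the values were 0.36 for Cbr1, 0.92 for Akr1b8 (0.39 to 1.27 with single tumors dropped, lowest without anti-PD-1 replicate 3) and 0.85 for Ephx1 (0.49 to 1.26, with overlapping groups), and the highest gene, Akr1a1, had -0.23. Akr1b8 had 16.1 FPKM in anti-PD-1 replicate 3 and 2.46 to 5.26 FPKM in the other tumors. Nqo2, the paralog of Nqo1, added after its values were seen, had 3.66 to 4.79 FPKM and a log2 FC of 0.01.

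Among regulators, Keap1, added outside the rule as the repressor of NRF2, had 7.46, 12.8 and 13.4 FPKM in IgG and 9.09, 6.67 and 6.41 FPKM in anti-PD-1 tumors. Its log2 FC was -0.51 (limma adjusted p = 0.442), on chromosome 9 with a median of -0.36, and the groups overlapped. Maff, a small MAF partner, had a log2 FC of 0.61, Dpp3, whose product binds KEAP1, of 0.44, Btrc, which encodes a second adaptor for the degradation of NRF2, of 0.39, and Sqstm1, the highest of the list at 103 to 163 FPKM, of 0.33. None of these regulators was called in the main fit. Some passed the thresholds in refits, for example Maff with the replicate block (0.61) and without IgG replicate 1 (0.86), and Btrc with voom (0.69). ATF4, a stress factor that also acts on Slc7a11, had targets with log2 FCs of 0.51 for Trib3, 1.04 for Phgdh (0.59 to 1.43 with single tumors dropped, with overlapping groups) and 0.43 for Psat1, and Atf4 itself had 0.19.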

How the data were processed

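RNA from IgG and anti-PD-1 tumors was sequenced, with 3 samples a group, each taken here as 1 tumor. Groups and replicate numbers came from the sample labels. A figure legend of the study describes pooled RNA, whereas the values used here belong to separate tumors, and nothing says whether each tumor is from its own mouse, so p-values measure the spread between these samples. Per the labels, the authors used FastQC 0.11.9, cutadapt 3.5, Bowtie2 2.4.1, RSEM 1.3.1 and, for their own tests, DESeq2 1.36.0 with R 4.1 on mm10. The authors deposited FPKM values, and how these were scaled is not given in the sources used here.

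Gene IDs were matched to GENCODE M21 (GRCm38), 54409 of 54532. Multiplied by merged exon length, the FPKM values fell within 0.1 of whole reads in all tumors for 53558 IDs, the 10 described genes among them, and read totals are sums over those IDs. Log2 of scaled FPKM (median-of-ratios) plus 1 was used. Genes whose mean FPKM reached 0.5 (15069) were fitted with limma 3.58.1 in R 4.3.3 (lmFit, eBayes with an intensity trend, two-sided, Benjamini-Hochberg). Fold changes on this scale understate those of low genes. Fits were tested on simulated reads. Exact permutation tests compared 3 log2 values with 3.

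Alternatives were 0.1 in place of 1, no filter, a floor of 2 FPKM, unscaled FPKM, quantile normalization, no trend, voom on recovered reads, a replicate block, each tumor left out in turn, and fold changes minus the chromosome's median. Of each related list, the 3 tested genes with the smallest p and the highest gene are named, along with called genes. Slc3a2, Nqo2, Keap1, Gstk1, Me1, G6pdx, Mthfd2 and single epithelial markers were added after their values were seen. The genes and lists were chosen with earlier results of these data known, and the study's own table of changed genes, made on these tumors, includes Gpx2, Nqo1 and most of the called related genes. Promoters are RefSeq's (GRCm38.p6). Tables and figures were made in Python 3.11.15 (pandas 2.3.3, numpy 2.4.6, matplotlib 3.10.9).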

Additional observations from a re-analysis of the deposited data

How the results depend on the processing

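Gpx2 and Nqo1 kept their direction and an unadjusted limma p under 0.05 in all alternatives that give a p, with adjusted p between 0.111 and 0.760 for Gpx2 and between 0.135 and 0.760 for Nqo1. Over genes, the same-numbered tumors did not deviate together for replicates 1 and 2 (r = -0.164 and 0.005). IgG replicate 1 went best with anti-PD-1 replicate 2, whereas the tumors numbered 3 went best with each other (r = 0.194). Gpx2 had the same order of replicates in both groups (1, 3, 2 from the highest). Its unadjusted limma p was 1.49e-05 with the replicate block and 0.013 without. The block also lowered the p of Hmox1, Srxn1 and Gsta4 and raised that of Nqo1, Gclc, Gclm, Txnrd1 and Nfe2l2. With it, 0 of all genes had an adjusted p under 0.05. What the same-numbered tumors share was not tested. Of the called related genes, Ggt1, Prdx1, Txn2 and Selenow lost the call in 7, 6, 4 and 3 refits. With the replicate block 2 of the 10 genes were called higher, Gsta4 beside Gpx2, and leaving out tumors gave 1 to 2. Of the 9 genes tested, those without overlap numbered 3 (18.1% of all genes), 1 after quantile normalization (17.4%) and 3 to 5 with single tumors left out (22.9% to 35.5%), with 5 without anti-PD-1 replicate 1 (31.0%) or 2 (28.3%). Related genes called higher ran from 9 to 20 and those called lower from 1 to 7 over the tumors left out, namely 15 and 1 when anti-PD-1 replicate 2 was dropped, 14 and 6 when IgG replicate 3 was, and 20 and 7 when IgG replicate 1 was, and 1 was called lower without a filter, where more genes were tested. Of 866 values for 58 named genes under the alternatives, 12 changed sign. Gclc was at -0.19 to 0.09 and Gclm at -0.30 to 0.00 with tumors left out, and relative to its chromosome Gclc was at 0.28 and Akr1a1 at 0.17. Gpx4 ranged from -0.06 to 0.88, Mgst1 from -0.45 to 0.45 Nqo2 from -0.05 to 0.10 (-0.02 relative to its chromosome) and Cat from -0.36 to 0.02. The cause of these shifts was not tested. With 3 tumors a group, the 95% intervals of Hmox1 and Gsta4 include changes of over 1 on the log2 scale, and few reads stand behind Slc7a11 (24 to 105), Gstm6 (0 to 52) and Ggt1 (51 to 204).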
